A study of Mus musculus with 24 samples.

Results

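The 8 transcription factors Cdx1, Cdx2, Hnf4a, Hnf4g, Gata4, Gata5, Gata6 and Klf5, which specify and maintain the identity of the intestinal epithelium, were followed through the sorted crypt fractions of control mice and of mice carrying a homozygous conditional Setd1a allele. They were chosen by name, and each symbol matched 1 row of the count table, giving 8 of 55421 genes. All 8 had counts in every library, from 71 counts for Cdx2 to 14218 for Klf5, and all passed the filter on low counts in every comparison.

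The intestinal epithelium renews from stem cells at the crypt base. Their dividing daughters, the transit-amplifying (TA) cells, mature into absorptive enterocytes or secretory cells, while Paneth cells settle among the stem cells and release antimicrobial proteins. CDX homeobox proteins set the intestinal, rather than gastric, programme of the epithelium, HNF4 nuclear receptors act at the enhancers of enterocyte genes, GATA zinc finger proteins help to separate the regions of the small intestine, and KLF5 is a zinc finger protein of dividing crypt cells.

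Control mice (het) were Setd1aFC/+ and the others (hom) Setd1aFC/FC, and all 8 mice, 4 of each genotype, carried Lgr5-eGFP-CreERT2 and received 1 mg tamoxifen on 3 days in a row. The control animals therefore carried the Cre, 1 conditional allele and the drug too, and differed from the others in keeping a wild-type copy of Setd1a. Cre is driven here by Lgr5, a gene of stem cells, and the share of cells that had recombined was not measured. Cells of dissociated small intestinal crypts were sorted 4 days after induction with antibodies to CD24, EpCAM and CD45 into fractions labelled sc, ta and pc, read here as stem, TA and Paneth cells, so that each animal gave 3 of the 24 libraries and each of the 6 groups has 4. Animals are numbered 1 to 4 within a genotype, and values for single animals are given below in that order.

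Total counts ran from 24.73 M to 47.05 M (M, 1e6 reads) per library. Levels are given as CPM, the count of a gene per 1e6 counts of its scaled library. Stem cell markers took 3.02% to 5.24% of counts in stem libraries, 0.565% to 1.22% in TA libraries and 0.167% to 0.796% in Paneth libraries. Lgr5, the receptor that marks crypt stem cells, was at 179.9 ± 27.5 against 11.2 ± 4.07 CPM in stem and TA libraries (mean ± SD, n = 8). Paneth markers took 8.32% to 48.1% of the counts in Paneth libraries but 0.156% to 0.386% in stem and 0.224% to 1.12% in TA libraries. The Paneth fraction also held tuft and enteroendocrine markers, summed to 2034 to 4212 and 3611 to 8114 CPM, against at most 17.4 and 261.8 CPM in any TA library. Stromal and endothelial markers summed to 13.1 to 85.0 CPM in Paneth libraries, against at most 1.60 CPM in any stem and 11.8 CPM in any TA library. Ptprc, which encodes CD45, was at 27.5 ± 5.27 CPM in het Paneth libraries and 32.6 ± 7.66 in hom ones, while Cd3e, of T cells, was at 0 in every TA library and at most 0.184 CPM in any Paneth library. The sum of the whole list of immune markers did not single out the Paneth fraction. It was 256 to 717 CPM in stem, 145 to 438 CPM in TA and 157 to 410 CPM in Paneth libraries. Gene by gene, 4 of these 8 markers could be tested with total counts alone in all 8 animals. At an edgeR adjusted p below 0.05, 2 were higher and 1 lower in Paneth than TA libraries (median log2 4.42). Against stem libraries 2 were higher and 1 lower too (median log2 3.79). Of all genes, 1954 were higher and 6774 lower against TA, and 2058 and 6719 against stem. Goblet markers summed to 5425 to 15969 CPM in TA, 119 to 1111 CPM in stem and 1219 to 17607 CPM in Paneth libraries. The part of these other cells in the levels of the 8 factors was not tested. Fewer cells of a type and less RNA per cell cannot be told apart in such bulk fractions.

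Setd1a itself, which encodes a histone H3 lysine 4 methyltransferase, was at 5.63 ± 1.58 CPM in het and 5.18 ± 1.49 CPM in hom stem libraries, with overlapping values. Counts summed over all exons do not report the loss of a single exon, so they check neither recombination nor the genotype labels.

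The RefSeq promoter table for GRCm38.p6, with windows from 250 bases before to 50 after a transcription start, matched 3 of the 8 genes, Cdx2, Hnf4a and Gata5. Hnf4a has a distal and a proximal start, which counts per gene add together. Gata5 had its highest level in the Paneth fraction after the TMM scaling described below. With total counts alone its mean in hom animals was 18.4 CPM in Paneth and 20.3 CPM in stem libraries. The windows of Hnf4a and Gata5 are shown because they let the motifs of the other factors be read directly. Each is 5′ to 3′ on the gene's strand, and capitals mark every match, on either strand, to GATAA (the GATA motif) or CCNCNCCC (a KLF motif, G-rich where it lies on the other strand).
Hnf4a distal, chr2:163506607-163506906, plus strand: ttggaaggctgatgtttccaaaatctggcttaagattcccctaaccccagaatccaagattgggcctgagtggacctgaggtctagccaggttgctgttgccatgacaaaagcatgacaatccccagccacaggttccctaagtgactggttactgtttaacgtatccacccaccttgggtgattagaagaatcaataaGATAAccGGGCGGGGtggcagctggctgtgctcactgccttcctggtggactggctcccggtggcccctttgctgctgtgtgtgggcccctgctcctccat
Hnf4a proximal, chr2:163546905-163547204, plus strand: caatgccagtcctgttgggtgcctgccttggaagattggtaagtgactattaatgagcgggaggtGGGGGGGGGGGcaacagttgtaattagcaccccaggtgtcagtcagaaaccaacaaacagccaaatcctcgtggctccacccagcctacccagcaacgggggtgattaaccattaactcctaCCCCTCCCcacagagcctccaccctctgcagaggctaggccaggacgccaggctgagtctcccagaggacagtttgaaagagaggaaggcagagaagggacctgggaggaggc
Gata5, chr2:180334630-180334929, minus strand: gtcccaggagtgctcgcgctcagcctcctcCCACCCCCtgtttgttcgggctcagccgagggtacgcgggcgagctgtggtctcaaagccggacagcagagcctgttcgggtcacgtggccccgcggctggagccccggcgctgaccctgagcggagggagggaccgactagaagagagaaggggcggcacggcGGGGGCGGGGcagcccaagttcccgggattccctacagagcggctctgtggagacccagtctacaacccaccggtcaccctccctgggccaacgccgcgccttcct
The distal Hnf4a window held 1 GATAA, 51 bases before the start, followed by 1 KLF match. Its proximal window held 5 KLF matches, of which 4 overlap in 1 run of G, and the Gata5 window held 3, of which 2 overlap. No match to TTTAT (CDX) or CAAAGTCC (HNF4) lay in any of these windows. Of all 32851 windows of that length, 25.4% held GATAA, 49.5% CCNCNCCC, 40.0% TTTAT and 1.4% CAAAGTCC, so that the KLF and GATA letters are common. The 2 Hnf4a windows had 4 CpG each and the Gata5 window 26, where the median window had 7. A match is a stretch of letters, not a measured binding site.

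All coordinates are on GRCm38 (mm10). Cdx1 is on chromosome 18 from 61018862 to 61036199 and Cdx2 on chromosome 5 from 147300805 to 147307270, both on the minus strand. Hnf4a is on chromosome 2 from 163506808 to 163572910 and Hnf4g on chromosome 3 from 3508030 to 3658052, both on the plus strand. Of the GATA genes, Gata4 is on chromosome 14 from 63198922 to 63271692 (minus), Gata5 on chromosome 2 from 180325133 to 180334699 (minus) and Gata6 on chromosome 18 from 11052064 to 11085635 (plus). Klf5 is on chromosome 14 from 99298691 to 99315036 on the plus strand. Values sum reads over the exons of each gene, of 1750 bases for Cdx1 up to 6508 for Gata6.

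To order the factors, levels were divided by exon length, as CPM per kilobase of exon (CPM per kb, mean ± SD, n = 4). Hnf4a and Klf5 led in stem libraries, at 44.8 ± 3.79 and 40.5 ± 2.56 CPM per kb in het animals, and their values overlapped. Cdx1 and Hnf4g followed, at 21.1 ± 1.52 and 20.0 ± 9.62, again with overlap. Gata6, Gata4 and Gata5 lay lower, at 10.7 ± 1.38, 8.42 ± 0.741 and 5.04 ± 2.22. Cdx2 was the lowest of the 8 in each of the 6 groups, at 4.12 ± 2.67 in het stem and 2.69 ± 0.979 in het Paneth libraries. Its range overlapped that of Gata5, the next above, in het stem and in both TA groups.

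The order of the leading factors differed between fractions. In TA libraries Hnf4g joined the top, at 61.2 ± 34.2 CPM per kb in het and 49.6 ± 19.4 in hom animals, beside Klf5 at 57.0 ± 4.83 and 67.9 ± 9.76 and Hnf4a at 45.6 ± 4.16 and 46.8 ± 2.46. In Paneth libraries the top 3 were Klf5, Cdx1 and Hnf4a, at 48.3 ± 11.4, 38.0 ± 6.84 and 35.0 ± 6.94 in het animals, with neighbours overlapping. Hnf4g came next there, at 14.2 ± 8.39 in het and 16.2 ± 6.34 in hom animals.

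**Figure D1:**
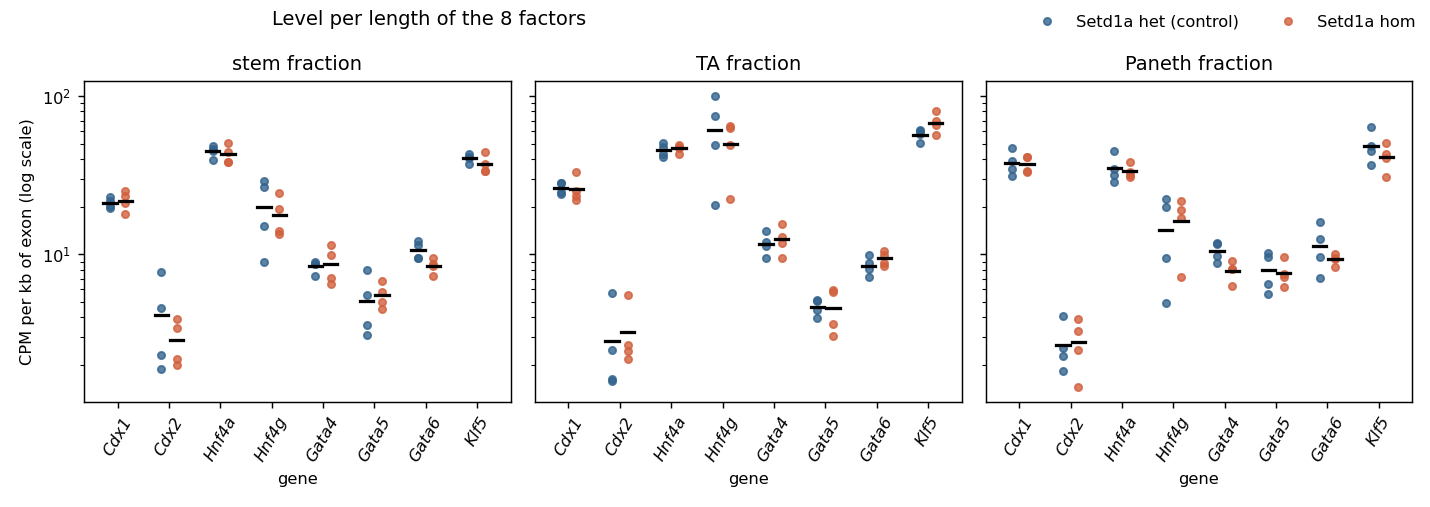
Level per exon length of the 8 factors in stem, TA and Paneth libraries (y axis, CPM per kb, log scale), with 1 point per animal, het in blue and hom in orange, and a bar at each group's mean. Cdx2 has the lowest mean in every group, at 2.69 to 4.12 CPM per kb. The SD of Hnf4g is largest in TA libraries, at 34.2 in het and 19.4 CPM per kb in hom animals. Relative to the mean, the SD of Hnf4g is 55.9% in het TA and 59.1% in het Paneth libraries.

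Levels below are in CPM after TMM scaling, a scaling that sets most genes level between libraries. Fractions were compared with the edgeR quasi-likelihood test within the 4 het and within the 4 hom animals, there without a block. A further fit of all 8 animals had the animal as a block. A gene was called at a Benjamini-Hochberg adjusted p below 0.05 over all genes tested. Scaling bears on the Paneth comparisons: with total counts alone, the median gene of the 8-animal fits lay at -0.60 (against TA) and -0.61 (against stem) on the log2 scale, while with TMM it lay at 0.024 and 0.017. In the genotype comparison of Paneth cells the median gene lay at -0.17 with total counts alone and -0.0031 with TMM. Each difference in Paneth cells is therefore relative to the median gene. Values without scaling are given for many, not all, of the calls that they turn or end. The 3 comparisons share libraries, since each fraction serves in 2 of them, and the het libraries serve the genotype comparison too.

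Fewer of the 8 factors differed between stem and TA cells within a genotype than with all animals together. In het animals 0 were higher in stem (of all genes tested, 2.69%) and 1, Klf5, was lower (3.57% of all genes). In hom animals 0 were higher (2.03%) and 2, Hnf4g and Klf5, were lower (2.58%). With all 8 animals 0 were higher (10.7%) and 4, Cdx1, Hnf4g, Gata4 and Klf5, were lower in stem than in TA (12.8%).

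Of the Paneth comparisons, the one with TA cells had the most calls. Cdx1 and Gata5 were higher in het Paneth than TA libraries (17.4% of all genes) and Hnf4g was lower (11.8%). In hom animals Cdx1 was higher (16.3%) and 4 were lower, Hnf4a, Hnf4g, Gata4 and Klf5 (12.2%). With all animals 2 were higher (27.3% of all genes) and 4 were lower (23.6%). With total counts alone this became 0 higher and 4 lower, beside 1954 higher and 6774 lower of the 15879 genes tested. The share of calls that were higher moved from 53.7% to 22.4% over all genes. Within a genotype it moved from 59.6% to 30.4% (het) and from 57.2% to 22.1% (hom).
Paneth and stem libraries differed in Cdx1 alone within a genotype, which was higher in het (17.3%) and in hom animals (17.4%), with 0 factors lower (11% and 13.2%). With all 8 animals Cdx1 and Gata5 were higher (26.3%) and Hnf4a was lower (22.8%). With total counts alone 0 were higher and 4 lower, Hnf4a, Hnf4g, Gata6 and Klf5, beside 2058 higher and 6719 lower of the 15879 genes tested. The share of calls over all genes that were higher moved from 53.6% to 23.4%. It moved from 61.1% to 30.3% in het and from 56.9% to 25.3% in hom animals. In 2 of the 8 factors, Cdx2 and Gata6, no comparison of fractions gave a call with TMM scaling, while Gata6 was called lower in Paneth than stem libraries of all 8 animals with total counts alone (log2 -0.50, adjusted p = 0.0266).

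**Figure D2:**
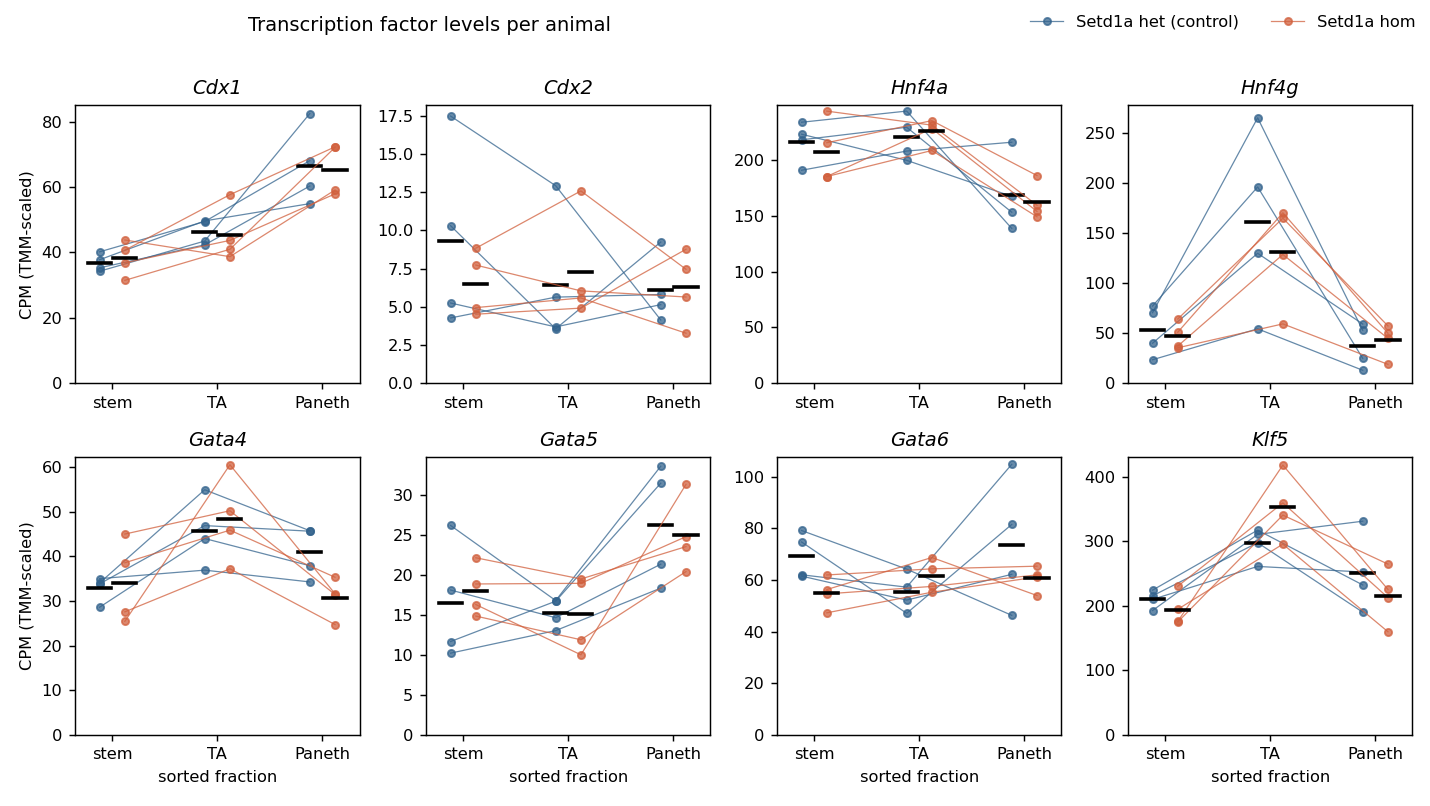
TMM-scaled CPM of each factor (y axis from 0, linear, separate scale per gene) in the 3 sorted fractions (x axis), with lines joining the libraries of 1 animal, het in blue and hom in orange, and bars at group means. Hnf4g and Klf5 peak in TA libraries in 8 and 7 of 8 animals, and Cdx1 and Gata5 are highest in the Paneth library of all 8 animals. With total counts alone the Cdx1 difference between Paneth and TA turns to -0.060 on the log2 scale. The Gata5 calls of all 8 animals against TA and stem are then lost.

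The CDX pair behaved differently. Cdx1, a homeobox gene of the crypt epithelium, was at 40.2, 34.3, 37.8 and 35.3 CPM in stem, 49.5, 43.5, 49.7 and 42.3 CPM in TA and 68.1, 82.5, 54.9 and 60.3 CPM in Paneth libraries of het animals. The 3 ranges did not overlap, with the Paneth values above the TA values and those above the stem values. In hom animals Cdx1 was at 31.5, 40.7, 43.8 and 36.8 CPM in stem, 41.0, 57.7, 38.7 and 43.7 in TA and 72.1, 72.3, 59.1 and 57.9 in Paneth libraries. There the stem and TA values overlapped and the Paneth values lay above both.
Against stem cells, the Paneth level of Cdx1 was higher by 0.88 ± 0.19 on the log2 scale in het animals (SE, n = 4, edgeR adjusted p = 0.00678) and by 0.82 ± 0.18 in hom animals (edgeR adjusted p = 0.00712). This call held with any 1 animal left out in either genotype, but with total counts alone it was lost, at 0.34 and 0.14. Against TA cells it was higher by 0.57 ± 0.11 over all 8 animals (edgeR adjusted p = 0.00176), higher in 8 of 8 animals, yet with total counts alone the sign turned, at -0.060. Within a genotype this call was close to the threshold, at adjusted p = 0.043 in het and 0.0457 in hom animals (edgeR), and was lost without het animal 1, 2 or 4 and without hom animal 1, 3 or 4. With the animal as a block it was also lost in het animals (edgeR adjusted p = 0.0672). In stem cells Cdx1 was lower than in TA cells by a small margin, -0.29 ± 0.084 (edgeR adjusted p = 0.0287), lower in 7 of 8 animals, and this call was lost when any of 6 of the 8 animals was left out, that is het animal 1, 2 or 3 or hom animal 1, 2 or 4.

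Cdx2, the homeobox gene that specifies intestine in the embryo and is kept in the adult, had low and scattered counts. Its het values were 17.5, 10.3, 4.27 and 5.25 CPM in stem, 12.9, 3.56, 5.63 and 3.69 in TA and 4.14, 9.24, 5.81 and 5.14 in Paneth libraries. The hom values were 7.73, 8.83, 4.52 and 4.95 CPM in stem, 6.04, 12.6, 4.91 and 5.58 in TA and 5.64, 7.45, 8.76 and 3.27 in Paneth libraries. Het animal 1 held the highest stem and TA values and hom animal 2 the high hom TA value, and within every group the values spanned more than the fraction means differed. Over all 8 animals the Paneth level differed from TA by -0.024 (95% interval -0.76 to 0.71) and from stem by -0.22 (-0.89 to 0.46) on the log2 scale. Both intervals are wide on either side of 0.

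The nuclear receptor pair also split. Hnf4g, the paralogue most tied to maturing enterocytes, was at 23.4, 77.0, 39.9 and 70.4 CPM in stem, 54.3, 196, 129.6 and 265 CPM in TA and 12.9, 24.8, 59.0 and 52.7 CPM in Paneth libraries of het animals. Hom animals had 35.3, 64.1, 37.1 and 50.9 CPM in stem, 59.2, 165, 128 and 170.0 in TA and 18.8, 57.2, 44.7 and 49.9 in Paneth libraries. In all 8 animals the TA library was the highest of the 3, although animals differed widely, and animal 1 of both genotypes had the lowest value of its genotype in every fraction.
Stem cells had 0.357 times the TA level over all 8 animals, a log2 difference of -1.49 ± 0.12 (edgeR adjusted p = 1.76e-05). Paneth libraries had 0.282 times the TA level, a log2 difference of -1.83 ± 0.18 (edgeR adjusted p = 1.68e-05). These were the largest fraction differences among the 8 factors, and both calls held with any 1 animal left out, with total counts alone and without animal 1 of both genotypes. Within het animals the stem difference, -1.61 ± 0.49, missed the threshold (edgeR adjusted p = 0.0893) but passed it with the animal as a block (adjusted p = 0.0033) and with DESeq2 (adjusted p = 0.00595). In hom animals it passed (-1.49 ± 0.33, edgeR adjusted p = 0.0318) and was lost without hom animal 2, 3 or 4.
The Paneth difference passed in het (-2.08 ± 0.55, edgeR adjusted p = 0.0182) and in hom animals (-1.60 ± 0.37, adjusted p = 0.0112), and was lost without het animal 2 or 4 or hom animal 3. Between Paneth and stem libraries Hnf4g differed by -0.35 (95% interval -0.83 to 0.13), which did not pass the test (edgeR adjusted p = 0.202).

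Hnf4a, the paralogue also active in liver, did not pass the test between stem and TA cells. It was at 218, 191, 234 and 223 CPM in stem, 229, 208, 244 and 199.6 in TA and 153, 216, 139 and 167 in Paneth libraries of het animals. It was at 185, 185, 244 and 215 CPM in stem, 228, 208, 231 and 235 CPM in TA and 154, 149, 159 and 186 CPM in Paneth libraries of hom animals. The hom Paneth values all lay below the hom TA values, while in het animals animal 2 had its highest value in the Paneth library. Stem differed from TA by -0.086 over 8 animals (95% interval -0.22 to 0.052), the narrowest interval of the 8 in that comparison. Paneth libraries were lower than TA libraries by a log2 difference of -0.40 ± 0.10 (edgeR adjusted p = 0.00766), lower in 7 of 8 animals, and this held with any 1 animal left out. The call within hom animals (-0.45 ± 0.13, edgeR adjusted p = 0.024) was lost whichever of the 4 animals was left out. Against stem the difference over 8 animals was -0.32 ± 0.12 (edgeR adjusted p = 0.0381), and with RLE scaling it missed the threshold (adjusted p = 0.0532). It was lost too without het animal 1, 3 or 4 or hom animal 2, 3 or 4.

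The 3 GATA genes had 3 patterns. Gata4, the GATA factor of the proximal small intestine, was at 28.6, 33.8, 35.0 and 34.0 CPM in stem, 44.0, 46.9, 36.9 and 54.9 in TA and 37.9, 45.6, 34.3 and 45.7 in Paneth libraries of het animals. In hom animals it was at 27.6, 25.4, 38.6 and 45.0 CPM in stem, 37.2, 60.5, 45.9 and 50.2 CPM in TA and 24.7, 31.6, 35.3 and 31.4 CPM in Paneth libraries. The TA library was the highest of the 3 in all 8 animals, although in het animals the Paneth values overlapped the TA values. Stem cells were below TA cells by a log2 difference of -0.50 ± 0.12 over 8 animals (edgeR adjusted p = 0.0135), a call that held with any 1 animal left out but not without animal 1 of both genotypes (adjusted p = 0.0696). Paneth libraries were below TA libraries by -0.36 ± 0.13 on the log2 scale (edgeR adjusted p = 0.0335), and this call was lost without het animal 4 or hom animal 1, 2 or 4. In hom animals alone the Paneth difference was -0.63 ± 0.18 (edgeR adjusted p = 0.0281), lost without hom animal 2, 3 or 4, and in het animals it was -0.14 ± 0.19 (edgeR adjusted p = 0.602).

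Gata5, best known from the early endoderm and heart, was at 26.2, 18.1, 11.7 and 10.2 CPM in stem, 16.8, 14.6, 16.7 and 13.02 in TA and 33.6, 21.3, 31.4 and 18.3 in Paneth libraries of het animals. Hom values were 22.1, 18.9, 14.8 and 16.3 CPM in stem, 19.5, 18.9, 11.9 and 10.00 CPM in TA and 23.5, 24.8, 20.4 and 31.3 CPM in Paneth libraries. The Paneth values lay above the TA values in both genotypes with no overlap, and in every animal the Paneth library was the highest of the 3. Over 8 animals the Paneth level was 1.73 times that of TA (log2 0.79 ± 0.16, edgeR adjusted p = 0.00183) and 1.55 times that of stem (log2 0.63 ± 0.16, adjusted p = 0.00756). Both calls held with any 1 animal left out, but with total counts alone they were lost, at 0.17 and 0.0077. Within het animals the TA difference was 0.80 ± 0.25 (edgeR adjusted p = 0.0377) and was lost whichever of the 4 animals was left out, and in hom animals it was 0.75 ± 0.26 (edgeR adjusted p = 0.0565).
Counting did not use strand, and 258 bases, 7.9% of the Gata5 exons, are overlapped by the antisense gene Gata5os, so reads of the pair cannot be told apart there. Gata5os had 1.10 ± 0.655 CPM in het TA and 3.22 ± 1.82 CPM in het Paneth libraries, and 0.857 ± 0.641 and 5.53 ± 5.52 CPM in hom ones. Its part in the Gata5 difference was not tested.

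Gata6, the GATA factor expressed along the whole intestine, was at 61.5, 62.0, 79.2 and 74.8 CPM in stem, 52.2, 57.3, 64.2 and 47.1 in TA and 62.2, 105, 46.3 and 81.6 in Paneth libraries of het animals. Hom animals had 47.3, 54.6, 56.3 and 62.0 CPM in stem, 55.3, 57.5, 68.7 and 64.3 CPM in TA and 61.2, 62.0, 54.0 and 65.4 CPM in Paneth libraries. All 3 fractions overlapped in both genotypes, and the widest spread was among het Paneth libraries. Over 8 animals stem differed from TA by 0.076 (95% interval -0.16 to 0.31) and Paneth from TA by 0.21 (-0.14 to 0.57), the latter with the opposite sign with total counts alone (-0.41). The stem value joins opposite directions. Stem was above TA by 0.33 in het animals (edgeR adjusted p = 0.254), in 4 of 4 animals. In hom animals the difference was -0.17 (edgeR adjusted p = 0.612), with stem higher in 0 of 4. The antisense gene 1010001N08Rik overlaps 93 bases, 1.4%, of its exons.

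Klf5, the zinc finger factor of the dividing crypt, was at 209.8, 193, 215 and 224 CPM in stem, 261, 311, 298 and 317 in TA and 252, 331, 190.0 and 232 in Paneth libraries of het animals. In hom animals it was at 175, 176, 195 and 230.2 CPM in stem, 340.5, 418, 295 and 359 CPM in TA and 265, 225, 159.7 and 213 CPM in Paneth libraries. Every stem value lay below every TA value in both genotypes, and the hom Paneth values below the hom TA values. Stem cells had 0.621 times the TA level over 8 animals (log2 -0.69 ± 0.10, edgeR adjusted p = 0.000606), and the call held with any 1 animal left out, with total counts alone and without animal 1 of both genotypes. Within a genotype it passed in het (-0.50 ± 0.11, edgeR adjusted p = 0.0317) and in hom animals (-0.88 ± 0.15, adjusted p = 0.0103), and was lost without het animal 2, 3 or 4 or hom animal 1, 2 or 3. Paneth libraries were below TA libraries by -0.45 ± 0.14 over 8 animals (edgeR adjusted p = 0.017), lower in 7 of 8, and het animal 2 was the exception. In hom animals alone this was -0.68 ± 0.20 (edgeR adjusted p = 0.0299), lost without hom animal 2, 3 or 4, and in het animals -0.22 ± 0.20 (adjusted p = 0.424). The difference from stem was 0.22 with TMM (adjusted p = 0.21, edgeR) and turned to -0.40 with total counts alone (adjusted p = 0.0474).

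**Figure D3:**
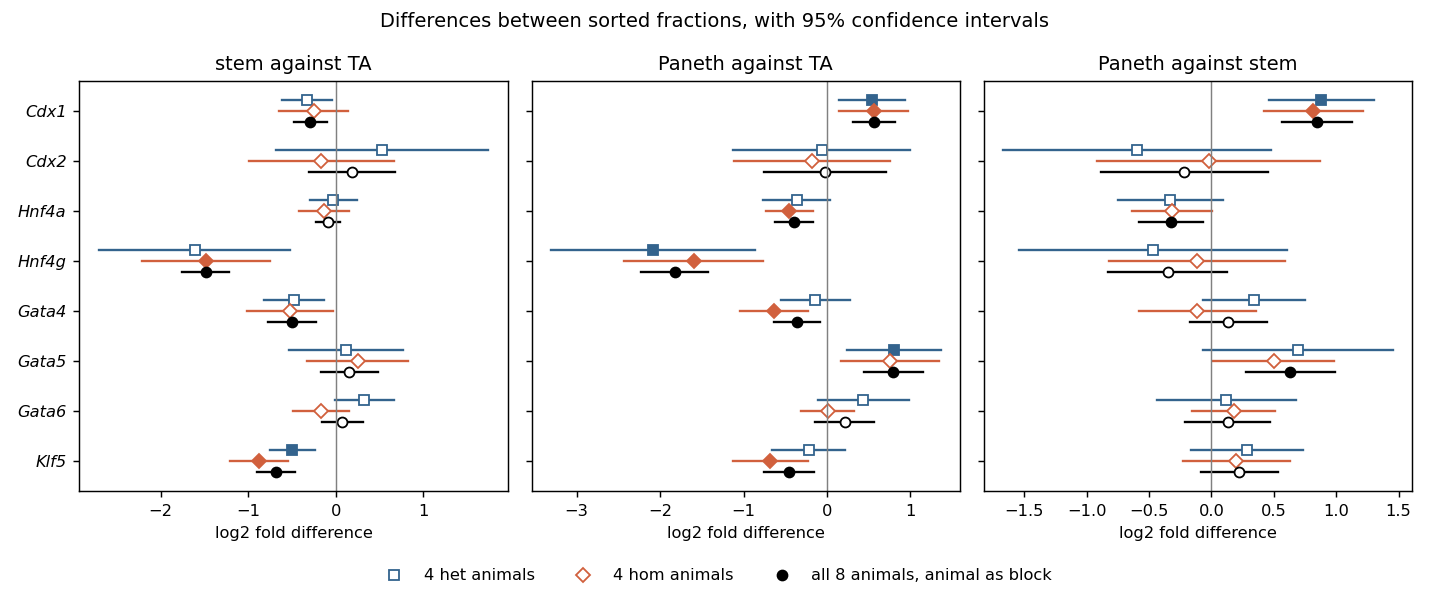
Log2 fold differences between fractions (x axis) of the 8 factors in het animals (blue squares), hom animals (orange diamonds) and all 8 animals with the animal as a block (black circles), with 95% confidence intervals from edgeR. Filled symbols passed an adjusted p below 0.05; Hnf4g is lowest in both comparisons with TA, at -1.49 in stem and -1.83 in Paneth libraries, and Cdx1 against TA turns to -0.060 with total counts alone.

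The question the genotypes address is whether these lineage factors differed between hom and het animals 4 days after induction. The share of cells that had recombined was not measured in any fraction. The differences and intervals below therefore compare genotypes, not cells known to lack Setd1a. None of the 8 passed the edgeR test between hom and het animals in stem cells (0 of 8, of all genes 0.0125%), in TA cells (0 of 8, of all genes 0%) or in Paneth cells (0 of 8, of all genes 0%). At an unadjusted p below 0.05 there was 1 of 8 in stem cells, Gata6, and 0 in TA and in Paneth cells. Beside these stood 1081, 942 and 368 of all genes tested (6.73%, 5.92% and 2.28%). DESeq2 called 0 of the 8 in each fraction as well, where it called 277, 121 and 27 genes in all.
Gata6 was the nearest to a difference in stem cells, where hom values ran from 47.3 to 62.0 CPM and het values from 61.5 to 79.2 CPM, overlapping by a small margin. Its log2 difference was -0.34 ± 0.15 (95% interval -0.68 to -0.0040, edgeR adjusted p = 0.741). In TA cells the smallest p belonged to Klf5, at 0.26 ± 0.13 (95% interval -0.038 to 0.56, edgeR adjusted p = 0.897), and in Paneth cells to Gata4, at -0.41 ± 0.20 (-0.85 to 0.017, adjusted p = 1.00). The Gata4 values in hom Paneth libraries, 24.7 to 35.3 CPM, overlapped the het values of 34.3 to 45.7 CPM.

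How large a genotype difference could have been missed varied by gene. Hnf4a had narrow intervals, -0.38 to 0.24 in stem, -0.20 to 0.30 in TA and -0.48 to 0.36 in Paneth cells. Those of Cdx1 were -0.30 to 0.39, -0.37 to 0.33 and -0.47 to 0.42, and those of Klf5 in stem and Paneth cells -0.42 to 0.17 and -0.74 to 0.30. For Cdx2 they were much wider, -1.52 to 0.47, -0.85 to 1.22 and -0.91 to 1.01, and for Hnf4g -0.98 to 0.63, -1.30 to 0.71 and -0.80 to 1.18, so that with 4 animals a group sizeable changes of these genes in either direction lie within the interval. Gata5 lay between, at -0.55 to 0.78 in stem cells.

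**Figure D4:**
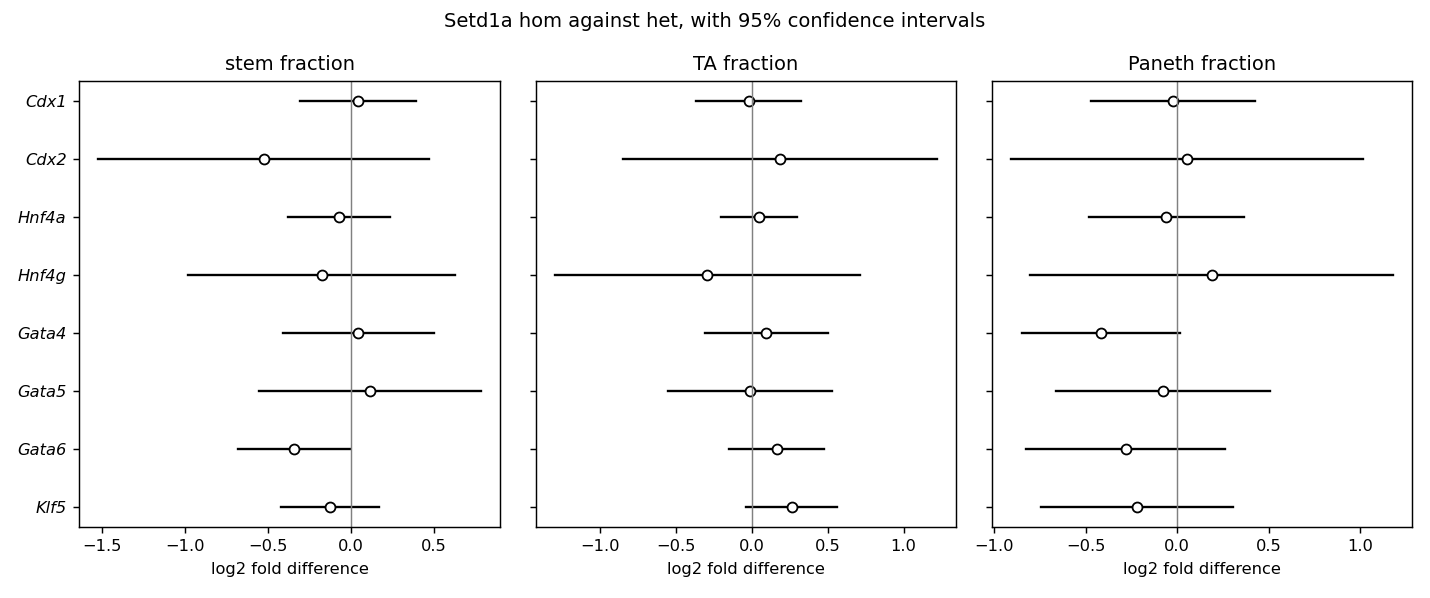
Log2 fold difference of hom against het animals (x axis) for the 8 factors in each fraction, with 95% confidence intervals from edgeR (n = 4 and 4). No symbol is filled, since 0 of 8 passed an adjusted p below 0.05 in any fraction, and the Gata6 interval in stem cells ends just under 0.

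Whether the genotype difference itself differed between fractions was tested in 1 fit of all 24 libraries, without the animal as a block. The 3 libraries of an animal thus entered as if independent, and SE and p below are from that fit. None of the 8 passed for stem minus TA (0 of 8, of all genes 0%), for stem minus Paneth (0 of 8, of all genes 0%) or for Paneth minus TA (0 of 8, of all genes 0.00516%). At an unadjusted p below 0.05 there were 0 of 8 in each, beside 767, 1219 and 965 of all genes tested (3.95%, 6.28% and 4.98%). DESeq2 called 0 of 8 in each. The lowest unadjusted p of the 8 was that of Klf5 for Paneth minus TA, at -0.47 ± 0.24 (edgeR adjusted p = 0.994). Gata4 was at -0.49 ± 0.27 there (adjusted p = 1.00, edgeR). For stem minus TA the lowest was that of Gata6, at -0.49 ± 0.26 (edgeR unadjusted p = 0.0742). Hence Hnf4a, Gata4 and Klf5, called lower in Paneth than TA libraries of hom but not het animals, were not shown to differ between the genotypes.

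Related factors and presumed targets give the setting. Of 6 paralogues not known for roles in intestinal epithelium, Cdx4, Gata1, Gata2, Gata3 and Klf1 had at most 1.83 CPM in any library and Klf2 at most 28.0 CPM. Of 25 other endoderm and epithelial transcription factors, 23 could be tested between stem and TA cells of 8 animals. Among these 2 were higher in stem, Ehf (359.9 ± 53.2 against 198 ± 15.7 CPM, log2 0.84, edgeR adjusted p = 2.99e-05) and Vdr, the vitamin D receptor (197 ± 36.7 against 131 ± 19.9 CPM, log2 0.57), and 8 were lower, beside 10.7% and 12.8% of all genes. The lower ones included Klf4, a factor of goblet cells (log2 -1.996), and Isx, a homeobox regulator of vitamin A uptake (log2 -0.65). The list's median difference was -0.11 beside 0.0062 for all genes tested, and that of the 8 lineage factors was -0.19.

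Between Paneth and TA libraries 7 of the 23 were higher and 6 lower, shares near the 27.3% and 23.6% of all genes. With total counts alone 2 were higher and 11 lower, beside 1954 and 6774 of the 15879 genes tested. Higher ones included Foxa1 (58.2 ± 20.5 against 20.6 ± 6.25 CPM, log2 1.52) and Foxa3 (log2 1.86), forkhead factors of secretory lineages, with edgeR adjusted p = 3.44e-06 and 5.25e-05. Ehf, an ETS factor of epithelia, was higher as well (log2 0.86), and Isx was lower (log2 -2.08). With total counts alone Foxa1 and Foxa3 were at 0.90 and 1.23, still called, Isx was at -2.70, and the Ehf call was lost, at 0.23 (edgeR adjusted p = 0.364).

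Of 26 brush border and lipid handling genes, a class bound by HNF4, CDX2 and GATA4, 17 were lower in stem than TA cells of 8 animals and 0 higher, beside 12.8% and 10.7% of all genes. Lgals4, a galectin of the brush border, was at 2729 ± 256 against 4776 ± 172 CPM (log2 -0.82), and Myo1a, a brush border myosin, at 44.4 ± 8.85 against 87.7 ± 13.8 CPM (log2 -0.999). Mttp, which loads lipid onto lipoproteins, differed by -1.37 on the log2 scale, with edgeR adjusted p = 9.17e-05. In Paneth libraries 8 were higher and 8 lower than in TA libraries (27.3% and 23.6% of all genes). With total counts alone these were 3 and 10, beside 1954 and 6774 of the 15879 genes tested. With TMM the brush border protocadherin genes Cdhr2 and Cdhr5 were at 2.47 and 2.85 on the log2 scale and Dgat1, an enzyme of triglyceride synthesis, at -1.42. Against stem cells the Paneth libraries had 12 higher and 2 lower (26.3% and 22.8% of all genes). With total counts alone these were 10 and 6, beside 2058 and 6719 of the 15879 genes tested. Of 8 genes of the jejunum and ileum, 7 could be tested, and 4 were lower in stem than TA cells and 0 higher, again beside 12.8% and 10.7% of all genes, with a median log2 difference of -2.53. Between hom and het animals 0 of these 26 genes and 0 of the 25 factors passed in any fraction.

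The genes most like each factor across the 24 libraries were read from Pearson correlations of log2(CPM + 1), given as a description, since libraries of a fraction and of an animal share much else. For Cdx1 these were Mapk3 (r = 0.92), Wbp2 and Abca7, and for Gata5 Sqstm1 (r = 0.86), Mau2 and Anks3. Hnf4g went with Smim24 (r = 0.90), Cisd3 and Sec23a, and Hnf4a with Nectin3 (r = 0.88), Nasp and Incenp. Klf5 went with Clint1 (r = 0.87), Reg1 and Mgat4a, Gata4 with Fcgbp (r = 0.78), Usp24 and Glod5, Gata6 with Zfp36l1, Tra2a and mt-Nd2, and Cdx2 with Yeats4 (r = 0.78), Cotl1 and Cblc. Among the 8 themselves, the highest correlation was that of Gata4 with Klf5 (r = 0.70) and the lowest that of Hnf4a with Gata5 (r = -0.69). The paralogues Hnf4a and Hnf4g had r = 0.35 over the 24 libraries. Within single fractions, of 8 libraries each, their r was -0.34 in stem, -0.55 in TA and -0.14 in Paneth libraries.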

How the data were processed

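RNA from 24 sorted fractions was amplified as full-length cDNA with 17 PCR cycles and sequenced, per the labels' protocols. The authors deposited 1 table of raw read counts per gene, counted with featureCounts 2.0.1 against Ensembl 98 on mm10, without strand, from read pairs of mapping quality 1 or more, per the file headers; bcl2fastq 2.20.0 is listed in the submitters' processing notes, and no source used here gives the aligner's version. Symbols matched 55154 of 55421 IDs. PCR reads without molecular identifiers are not independent molecules, so the depth overstates precision for low genes such as Cdx2.

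Counts were tested with edgeR 4.0.16 (quasi-likelihood F test, TMM scaling, filterByExpr, Benjamini-Hochberg adjustment over all genes tested, called at 0.05) under R 4.3.3; SE is the log2 difference over the square root of F. CPM use 1 TMM scaling of all 24 libraries over 19396 genes. Likeness used log2(CPM + 1) over 9257 genes with a mean of at least 5 CPM, naming the top 3 per factor. All 8 factors are named, with up to 4 genes of a list by smallest unadjusted p in a comparison, and defining markers. Figures were drawn with matplotlib 3.10.9 and levels summarised with pandas 2.3.3 under Python 3.11.15. Simulated counts were run only through the stem genotype comparison and the het comparison of stem with TA. The fits with a block and the interactions were not simulated.

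Titles name the animal, so the 3 fractions of an animal are paired by label: deviations of same-animal libraries correlated at -0.018 to 0.247, and in 23 of 24 comparisons of 2 fractions a library correlated best with that of its own animal. Titles also share prefixes across genotypes (BN, BO and BP), with het and hom animals of the same number here having neighbouring title numbers, but the labels do not say whether these mark a litter or batch, so the genotypes were compared without a block. Alternatives were RLE scaling, no filter, DESeq2 1.42.0, 1 fit of 24 libraries, the animal block and leaving out each animal. The fits of all 8 animals, the scaling-free fits, the fits of animals 2 to 4, the genotype fits with a block from the titles and the Paneth minus TA interaction were chosen after seeing the data. The members and gene lists were chosen with earlier results of these data known.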

Additional observations from a re-analysis of the deposited data

Results flagged for a closer look

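One of the 48 groups of 4 values (8 genes in 6 groups) had a sample far from the others: Cdx2 in hom TA cells, where hom animal 2 had 12.6 CPM and the other animals 4.91 to 6.04 CPM. The gap to the next value was 0.853 of the group's range, above the 95% critical value of Dixon's test for 4 samples. Chance alone gives such a value in about 1 in 20 groups. No cause was tested.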

How the results depend on the processing

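The genotype comparisons called 0 of the 8 factors under every alternative run, and so did the 3 interactions; leaving out animals was not run for Paneth minus TA. DESeq2 called 277, 121 and 27 genes in stem, TA and Paneth cells, against 2, 0 and 0 with edgeR, and 19, 59 and 31 for the interactions, against 0, 0 and 1. One fit of 24 libraries called 8, 1 and 2 genes by genotype, no filter 8 in Paneth cells, and total counts alone 2 there; animals 2 to 4 gave 0 in stem cells. For stem minus Paneth no filter called 1 gene.

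Of the 8 factors, stem against TA in het animals called 1, but 0 with 1 fit of 24 libraries, 0 without the filter, 4 with DESeq2 and 2 with the animal as a replicate block. Paneth against TA called 1 of 8 in het and 2 in hom animals without the filter, against 3 and 5. Paneth against stem in het animals and stem against TA in hom animals called 2 and 1 in 1 fit of 24 libraries, and Paneth against stem in hom animals called 2 with DESeq2. With animals 2 to 4, 4 calls of the 8 factors in the fits of all 8 animals were lost and 0 were gained. Stem against TA then called 2, and the other lost calls were in Paneth comparisons. Leaving out 1 animal gave 0 to 2 of 8 (stem against TA, het), 0 to 1 (hom), 0 to 2 (Paneth against TA, het) and 0 to 3 (hom). All genes called in stem against TA rose from 1013 to 2230 (het) and from 736 to 1944 (hom) with DESeq2, and in het Paneth cells from 4721 to 7162 (against TA) and from 4600 to 6972 (against stem).

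The block by animal raised all calls in stem against TA to 1848 (het) and 1427 (hom) and gave 2 for stem minus Paneth. Under it Cdx2 in Paneth against TA in het animals turned to 0.11; the pairing changed no other call of the 8 than those of Cdx1 and Hnf4g in the report. Between genotypes, a replicate block by title prefix, or by neighbouring title numbers (4 pairs), called 0 of the 8 factors in each fraction; Gata6 in stem cells, lower in the hom animal of all 4 pairs, was at -0.34 with the pairs as a block (edgeR adjusted p = 0.366). The pairs called 1, 0 and 0 of all genes in stem, TA and Paneth cells and the prefix 2, 2 and 0, against 2, 0 and 0. Deviations of paired animals correlated at 0.04 to 0.222 in stem, 0.054 to 0.227 in TA and -0.001 to 0.209 in Paneth libraries; in stem and Paneth cells 3 of 4 het libraries and in TA cells 4 of 4 correlated best with their own pair.

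Signs turned only for values that had not been called, apart from Cdx1 in Paneth against TA. Gata6 in hom Paneth against TA turned to -0.020 in 1 fit of 24 libraries and -0.038 without the filter. Cdx2 in hom Paneth against stem turned to 0.0041 with DESeq2 and 0.0081 with RLE.
With total counts alone the turned values against TA were -0.081 (Gata6, het Paneth), -0.14 and -0.66 (Cdx1, Gata6, hom Paneth), -0.060 and -0.41 (Cdx1, Gata6, all Paneth) and 0.0015 (Hnf4a, het stem). Against stem they were -0.19, -0.43 and -0.26 (Gata4, Gata6, Klf5, het), -0.14, -0.47 and -0.50 (Gata5, Gata6, Klf5, hom) and -0.49, -0.50 and -0.40 (Gata4, Gata6, Klf5, all). Cdx2 by genotype in Paneth cells turned to -0.11.
With animals 2 to 4 the turned values were 0.053 (Cdx1, genotype, TA), -0.077 and 0.072 (Cdx2, Gata5, genotype, Paneth) and, for Cdx2 in all 8 animals, 0.22 against TA and 0.078 against stem. The cause was not tested.

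With 1 animal left out, the sign turned in at least 1 fit for these uncalled log2 differences, each given as its lowest and highest value. By genotype in stem cells they were Cdx1 (-0.029 to 0.12), Gata4 (-0.12 to 0.16), Gata5 (-0.062 to 0.42), Hnf4g (-0.42 to 0.066). By genotype in TA cells they were Cdx1 (-0.16 to 0.045), Cdx2 (-0.22 to 0.76), Gata4 (-0.034 to 0.20), Gata5 (-0.16 to 0.15), Hnf4a (-0.0019 to 0.10), Hnf4g (-0.59 to 0.050). By genotype in Paneth cells they were Cdx1 (-0.12 to 0.089), Cdx2 (-0.14 to 0.32), Gata5 (-0.22 to 0.089), Hnf4a (-0.15 to 0.072), Hnf4g (-0.090 to 0.49). Between fractions in het animals they were Cdx2 Paneth against TA (-0.52 to 0.66), Cdx2 Paneth against stem (-0.83 to 0.045), Gata5 stem against TA (-0.15 to 0.29), Gata6 Paneth against stem (-0.15 to 0.35), Hnf4a stem against TA (-0.089 to 0.011). Between fractions in hom animals they were Cdx2 Paneth against TA (-0.55 to 0.13), Cdx2 Paneth against stem (-0.37 to 0.10), Cdx2 stem against TA (-0.34 to 0.051), Gata4 Paneth against stem (-0.23 to 0.048), Gata6 Paneth against TA (-0.074 to 0.11), Hnf4g Paneth against stem (-0.25 to 0.0049). Between fractions in all 8 animals they were Cdx2 Paneth against TA (-0.23 to 0.19), Cdx2 Paneth against stem (-0.41 to 0.017), Gata6 stem against TA (-0.0085 to 0.13).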

Other observations

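Animal 1 of both genotypes, whose titles share the prefix BN with no other animal, stood apart in Klf6 and, in stem and TA cells, Elf3, both picked after their values were seen. Klf6, a zinc finger factor induced early in many cells, was at 400.0, 34.6, 48.9 and 36.2 CPM in the stem libraries of het animals 1 to 4 and at 265, 50.1, 51.7 and 41.8 CPM in those of hom animals. In TA cells it was at 249.6, 42.7, 73.9 and 64.2 CPM in het and 204, 43.9, 62.3 and 59.4 CPM in hom animals. Animal 1 held the highest value in each of these 4 groups, and again among Paneth libraries, at 158, 57.0, 88.1 and 80.0 CPM in het and 139.9, 58.5, 68.5 and 62.7 CPM in hom animals.

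Elf3, an ETS factor of epithelia, was at 1085, 289, 339 and 202 CPM in het stem libraries and 782, 418, 310.0 and 232 CPM in hom ones. In TA cells it was at 943, 289.8, 384 and 328 CPM in het and 646, 414, 398 and 242 CPM in hom animals, with animal 1 highest in all 4 of these groups. In Paneth libraries it was at 347, 221, 323 and 249 CPM in het and 290.3, 308, 230.4 and 195 CPM in hom animals, where hom animal 2 was higher than hom animal 1 and het animal 3 was close to het animal 1. The same animals had the lowest Hnf4g in TA cells, at 54.3 and 59.2 CPM, where the other 6 animals had 128 to 265 CPM. These are values of 2 animals, and no test was made.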
